A study of Mus musculus with 6 samples.

Results

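Genes of mitosis and of the G2/M transition were examined as a group of 37 named genes in mouse splenic plasma cells, sorted as IgM-positive or IgG1-positive. The members were chosen by symbol, with the condition of at least 1 FPKM (fragment counts scaled to transcript length and to library size) in at least 3 of the 6 libraries. All 37 were found among the 24346 gene symbols and passed that condition, as did 9087 genes in all, and no member passed it through 1 isotype alone. The 3 IgM libraries and the 3 IgG1 libraries came from donor-derived plasma cells of congenically marked B1-8germ B cells, which carry a rearranged heavy chain specific for the hapten NP. All donor cells had been transferred into C57BL/6J wild-type hosts that were immunized with NP-CGG in alum, and were sorted on day 7. The sources used here do not state age, sex, the number of hosts, any pooling of spleens or whether each replicate is a different animal. A p-value therefore reflects only the scatter among these 6 libraries, which could be technical.

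Entry into mitosis is driven by cyclin-dependent kinase 1 with its A and B cyclins. Polo-like and Aurora kinases then build the spindle, the kinetochore joins chromosomes to it, and the anaphase-promoting complex ends mitosis by marking cyclin B and securin for destruction. Plasma cells arise from dividing plasmablasts and leave the cycle as they mature, so these transcripts are known as markers of cells still dividing. In bulk RNA, fewer dividing cells and less RNA per dividing cell cannot be told apart.

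Many G2/M genes share promoter elements: the cell cycle genes homology region (CHR, searched here as TTTGAA), bound by the MuvB complexes, and the CCAAT box, bound by NF-Y. RefSeq start sites on GRCm38.p6 were matched for 32 of the 37 members, and Ccna2, Aurkb, Kif20a, Tpx2 and Stmn1 were not matched. Within a window of 250 bases before to 50 bases after the start, searched on both strands, 25 of the 32 members (78.1%) held TTTGAA, against 17.9% of all 32851 promoter windows. CCAAT was present in 27 of the 32 (84.4%), against 37.4% of all windows, and both motifs in 23 (71.9%), against 6.95%. Between 60 bases before and 50 bases after the start, TTTGAA was present in 24 members (75.0%), against 5.5% of all windows. A member was counted if any of its windows matched, whereas the share of all windows is over single windows. The units therefore differ, and a share per gene over all genes was not computed. The 7 members without TTTGAA in their window were Birc5, Bub1, Ccnb1, Cenpe, Cks2, Knstrn and Nusap1. A match of letters is a description and not evidence of binding, and a window without a match says only that these letters are absent from it.

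The stretches of 120 bases that follow are from RefSeq, upstream of the start and written 5′ to 3′ on the strand of the gene, with capitals for both motifs and their reverse complements. They are shown for 3 members that lay higher in every IgM library than in any IgG1 library (Mki67, Top2a, Kif11) and for 3 that lay lower (Cdk1, Cks1b, Cks2). The Mki67 stretch runs from 200 to 81 bases before the start, because its CHR and CCAAT letters lie there, and the others from 120 bases to 1 base before it. The start meant is that of RefSeq. In the GENCODE vM21 annotation Cks1b begins at 89418383 and Cdk1 at 69352938. The later part of both stretches, with the TTTGAA near the end, therefore lies inside the GENCODE gene.
Mki67, chr7:135716460-135716579, minus strand: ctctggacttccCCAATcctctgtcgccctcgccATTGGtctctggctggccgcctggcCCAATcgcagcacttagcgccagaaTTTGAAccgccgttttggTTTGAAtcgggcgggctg
Top2a, chr11:99024190-99024309, minus strand: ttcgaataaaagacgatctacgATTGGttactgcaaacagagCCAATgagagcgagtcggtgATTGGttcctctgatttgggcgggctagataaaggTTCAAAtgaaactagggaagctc
Kif11, chr19:37376262-37376381, plus strand: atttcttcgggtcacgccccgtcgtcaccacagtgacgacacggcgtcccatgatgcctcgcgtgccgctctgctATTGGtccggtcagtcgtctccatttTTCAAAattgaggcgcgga
Cdk1, chr10:69352913-69353032, minus strand: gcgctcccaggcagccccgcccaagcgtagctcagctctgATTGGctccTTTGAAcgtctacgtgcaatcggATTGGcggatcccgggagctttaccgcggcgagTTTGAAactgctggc
Cks1b, chr3:89418292-89418411, minus strand: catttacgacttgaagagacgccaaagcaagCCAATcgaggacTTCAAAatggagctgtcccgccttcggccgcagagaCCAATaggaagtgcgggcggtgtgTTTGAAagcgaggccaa
Cks2, chr13:51645112-51645231, plus strand: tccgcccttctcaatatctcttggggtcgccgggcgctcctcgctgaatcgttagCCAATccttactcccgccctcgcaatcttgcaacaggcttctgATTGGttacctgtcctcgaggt
The members with higher values and those with lower values in IgM both had these letters. Top2a, Kif11, Cdk1 and Cks1b each had TTTGAA or its complement close to the end of the stretch shown, Mki67 had it in 2 places farther upstream, and Cks2 had 2 CCAAT boxes and no TTTGAA.

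Of the 37 genes 1, Mki67, passed the test, with the higher level in IgM plasma cells than in IgG1 plasma cells. For 24 of the 37 the 95% interval of the log2 fold change lay between -1 and 1. Tests were made with limma on log2(FPKM + 1) over all 9087 genes, and a gene was called at a Benjamini-Hochberg adjusted p under 0.05. Log2 fold changes are IgM minus IgG1 of those values, and the added 1 shrinks the change of weakly expressed genes. Of the 37 members 1 was called higher in IgM, beside 1.76% of all tested genes, and 0 were called lower, beside 4.26%. At an unadjusted p under 0.05, limma had 5 members higher, beside 10.2% of all tested genes, and 3 lower, beside 11.9%. Together these are 8 of 37, beside 22.2% of all tested genes. In all, 160 genes were called higher and 387 lower, so that 29.3% of calls were higher in IgM. Median centring gave 19.4% and quantile normalization 51.5%. Setting the libraries to 1 common total that omits the joining chain gene gave 69.0%, and there the median log2 fold change of all genes was 0.25, against 0.05 as deposited. As deposited, the FPKM of all genes summed to 730695, 806599 and 757519 in IgM libraries 1 to 3. In IgG1 libraries 1 to 3 they summed to 855123, 878039 and 914019, so a common total also removes lower totals in IgM. The members' median log2 fold change was -0.10, or 0.15 below the median of all tested genes, and 0.13 below it after that rescaling (without the joining chain gene), under which it was 0.12.

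In summed FPKM the 37 members came to 2856, 3102 and 3365 in IgM libraries 1 to 3 and to 3311, 3473 and 4010 in IgG1 libraries 1 to 3. The ranges overlapped, and the mean was 3108 ± 255 in IgM and 3598 ± 366 in IgG1 (SD, n = 3 each). As a share of all FPKM in a library the members made up 0.407% ± 0.0328 in IgM and 0.407% ± 0.0277 in IgG1 (SD, n = 3 each). Cks1b was the most abundant member in each of the 6 libraries, and Kif15 or Cenpf the least. The order of levels among the 37 members was close between any 2 libraries, with Spearman rho of 0.946 to 0.982, a description over genes that share length and composition across libraries. None of the members was listed at 0 in any library, and 35 were at or above 1 FPKM in all 6.

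**Figure D1:**
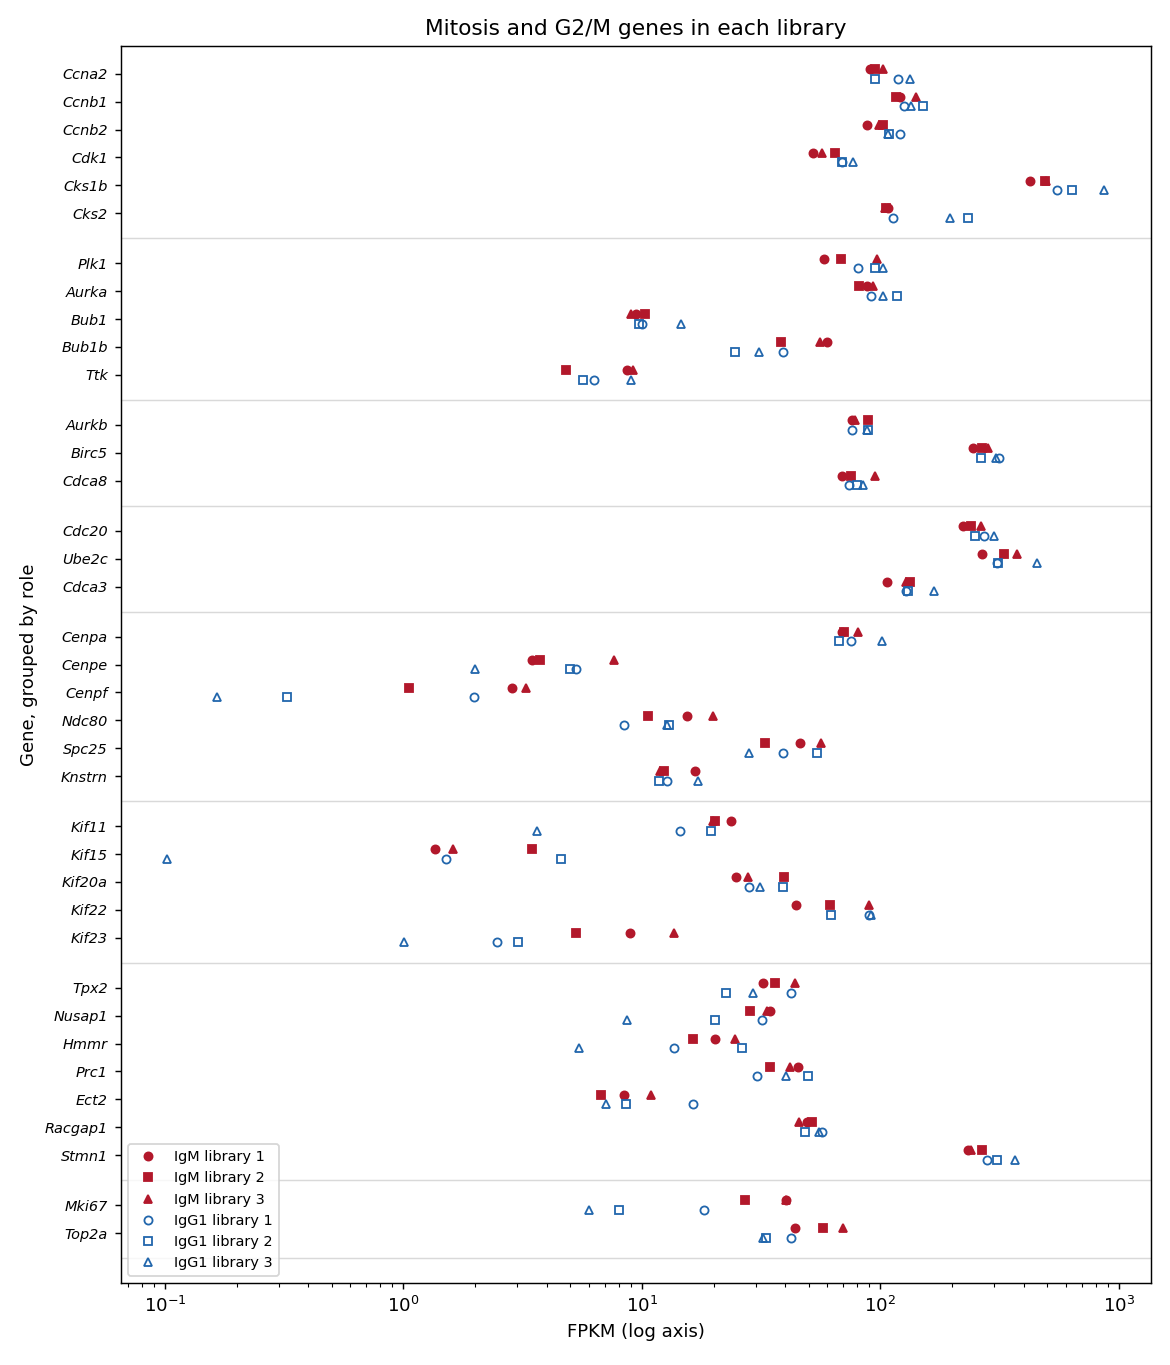
FPKM of each of the 37 genes on a log axis, with genes down the page grouped by role, filled red symbols for the 3 IgM libraries and open blue symbols for the 3 IgG1 libraries. Most genes overlap or lie close, Mki67 and Kif23 lie to the right in IgM, and IgG1 library 3 lies far to the left for Kif15 (0.102 FPKM) and Cenpf (0.166 FPKM).

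Before single genes are described, the libraries themselves differed in how expression followed transcript length. Over 9043 genes with a known length, each gene's deviation from its mean over the 6 libraries correlated with length at Spearman rho 0.31, 0.15 and 0.29 in IgM libraries 1 to 3 and at -0.15, -0.18 and -0.24 in IgG1 libraries 1 to 3. Log2 fold changes with the length and GC trend of every library removed are therefore given beside results. Because the trend differs between the groups, its removal also takes away part of any true difference that follows length. Plasma cell markers were abundant in all 6 libraries, with all 8 that were found at or above 1 FPKM in at least 3 libraries. Their summed FPKM was 44300 to 50170 in IgM and 36770 to 39350 in IgG1. The most abundant of them set that sum, and single markers went in both directions, so it is no measure of plasma cell content. Of other cell types, the 7 T cell markers found summed to 2.73 to 4.73 FPKM in IgM and 1.13 to 7.29 FPKM in IgG1, and the 8 erythroid markers to 0.778 to 4.75 FPKM in IgM and 2.48 to 3.17 FPKM in IgG1, with Klf1 at 0 in all 6 libraries. The 9 germinal centre B cell markers summed to 54.0 to 59.1 FPKM in IgM and 84.2 to 113 FPKM in IgG1. Gcnt3 was at 0 throughout and Bcl6 was at 0.431 FPKM or less, and Mef2b, Fas and S1pr2 made up nearly all of that sum. The 7 B cell markers summed to 132 to 164 FPKM in IgM and 106 to 140 FPKM in IgG1, with Pax5 at 0 in all. The 8 myeloid markers found summed to 9.03 to 12.7 FPKM in IgM and 2.80 to 9.54 FPKM in IgG1, with S100a8 and S100a9 at 0, and all 4 NK cell markers were at 0. The part of such cells in the results was not tested.

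Mki67 encodes Ki-67, the protein that coats mitotic chromosomes and is the standard marker of proliferating cells. It stood at 40.3, 27.0 and 40.3 FPKM in IgM libraries 1 to 3 and at 18.2, 8.05 and 5.98 FPKM in IgG1 libraries 1 to 3. Every IgM library was above every IgG1 library. The mean was 35.9 ± 7.68 FPKM in IgM and 10.7 ± 6.51 FPKM in IgG1 (SD, n = 3 each), a 3.34-fold higher level in IgM, and the log2 fold change was 1.77 (SE 0.36, 95% interval 0.99 to 2.54, limma adjusted p = 0.0155). With the length and GC trend removed it was 1.31 (SE 0.30, adjusted p = 0.0419). The gene lies on chromosome 7 from 135689784 to 135716361 on the minus strand in GRCm38 (GENCODE vM21, protein-coding), and its median transcript length of 10061 nt was the second longest of the members after that of Cenpf. The call of Mki67 ended without IgM library 1 (log2 fold change 1.67, limma adjusted p = 0.0869), IgM library 3 (1.67, 0.0559), IgG1 library 2 (1.65, 0.0591) or IgG1 library 3 (1.46, 0.0501).

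Top2a encodes DNA topoisomerase II alpha, which untangles sister chromatids and is another standard marker of G2 and mitosis. It was at 44.0, 57.6 and 69.9 FPKM in IgM libraries and 42.1, 33.1 and 32.3 FPKM in IgG1 libraries, so the groups did not overlap but the lowest IgM library was close to the highest IgG1 library. The log2 fold change was 0.64 (SE 0.21, limma adjusted p = 0.0912) and 0.23 with the length and GC trend removed. After rescaling without the joining chain gene Top2a was past the threshold (0.87, limma adjusted p = 0.0318).

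The 6 genes of the cyclin and CDK1 module had log2 fold changes below 0 in the values as deposited, 2 of them above 0 under another scaling (Ccnb1 and Ccnb2), and 0 of them passed the test. Cdk1, the kinase that starts mitosis, was at 52.3, 64.7 and 57.0 FPKM in IgM libraries and 69.2, 69.3 and 76.7 FPKM in IgG1 libraries, with no overlap (log2 fold change -0.31, SE 0.16, 95% interval -0.65 to 0.04). Ccnb1, which encodes its partner cyclin B1, was at 121, 117 and 142 FPKM in IgM libraries and 125, 150 and 135 FPKM in IgG1 libraries, which overlap (-0.12, 95% interval -0.42 to 0.19). Ccnb2, the other B cyclin gene, was at 87.7, 102 and 98.6 FPKM in IgM libraries and 121, 108 and 108 FPKM in IgG1 libraries (-0.22, 95% interval -0.52 to 0.08). All 3 intervals lie between -1 and 1. Ccna2, the gene of cyclin A2, was at 96.0 ± 6.19 FPKM in IgM and 115 ± 19.2 FPKM in IgG1 (SD, n = 3 each; log2 fold change -0.25). The direction of Ccnb1 was positive after quantile normalization (0.06) and after rescaling without the joining chain gene (0.12), where Ccnb2 was at 0.01. The same rescaling gave -0.02 for Ccna2, -0.08 for Cdk1, -0.29 for Cks1b and -0.47 for Cks2.

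Cks1b and Cks2 encode the small CKS proteins that bind cyclin-dependent kinases, and they are the members with the lowest log2 fold changes. Cks1b was at 422, 493 and 493 FPKM in IgM libraries and 550, 634 and 864 FPKM in IgG1 libraries. Cks2 was at 107, 105 and 105 FPKM in IgM libraries and 113, 232 and 196 FPKM in IgG1 libraries. For both genes every IgM library lay below every IgG1 library, and IgG1 library 1 was the nearest to IgM. The log2 fold change was -0.52 for Cks1b (SE 0.15, limma adjusted p = 0.0704) and -0.70 for Cks2 (SE 0.22, limma adjusted p = 0.0802), and -0.37 and -0.59 with the length and GC trend removed. Without IgG1 library 1 both passed the threshold (-0.66, limma adjusted p = 0.0325, and -1.01, adjusted p = 0.00782), where 398 of all 8880 tested genes were called lower. Without any 1 of the other 5 libraries neither passed, with limma adjusted p of up to 0.2503 for Cks1b and 0.212 for Cks2 and log2 fold changes as near to 0 as -0.33 (Cks1b, without IgG1 library 3) and -0.49 (Cks2, without IgG1 library 2). At 807.5 and 692 nt they have the shortest median transcript lengths of the members.

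Among the mitotic kinases and checkpoint genes, 0 of 5 passed. Plk1, which encodes polo-like kinase 1, was at 58.3, 68.4 and 97.1 FPKM in IgM libraries and 80.4, 95.2 and 103 FPKM in IgG1 libraries (-0.34, 95% interval -0.76 to 0.09). Aurka, the Aurora kinase of the spindle poles, was at 87.9, 81.8 and 92.9 FPKM in IgM libraries and 91.7, 117 and 103 FPKM in IgG1 libraries (-0.24). In both genes the groups overlapped. Bub1b, which encodes the checkpoint protein BUBR1, was at 59.6, 38.5 and 55.9 FPKM in IgM libraries and 39.1, 24.6 and 31.0 FPKM in IgG1 libraries. Its groups overlapped, with IgM library 2 just below IgG1 library 1, and the log2 fold change was 0.68 (SE 0.23, limma adjusted p = 0.105). The related kinase gene Bub1 was at 9.60 ± 0.646 FPKM in IgM and 11.4 ± 2.71 FPKM in IgG1 (-0.21, SE 0.30), and the checkpoint kinase gene Ttk at 7.55 ± 2.38 FPKM in IgM and 6.99 ± 1.78 FPKM in IgG1 (0.08, SE 0.37; SD, n = 3 each).

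The chromosomal passenger complex, which corrects faulty attachments and guides cytokinesis, had 0 of 3 genes past the threshold and intervals between -1 and 1. Its kinase gene Aurkb was at 76.2, 89.0 and 78.1 FPKM in IgM libraries and 76.3, 88.9 and 88.0 FPKM in IgG1 libraries (-0.06, 95% interval -0.38 to 0.26). Birc5, the gene of survivin, was at 245, 266 and 282 FPKM in IgM libraries and 316, 264 and 304 FPKM in IgG1 libraries (-0.15, 95% interval -0.41 to 0.11). Cdca8, the gene of borealin, averaged 80.1 ± 13.7 FPKM in IgM and 79.4 ± 5.39 FPKM in IgG1 (SD, n = 3 each; 0.00, 95% interval -0.35 to 0.35). The 3 genes overlapped between the groups, and after the rescaling Aurkb was at 0.17 and Birc5 at 0.08. The anaphase-promoting complex activator gene Cdc20 (242 ± 21.4 FPKM in IgM, 274 ± 24.9 FPKM in IgG1), its ubiquitin-conjugating enzyme gene Ube2c (323 ± 53.7 FPKM in IgM and 358 ± 81.7 FPKM in IgG1) and Cdca3, a gene that promotes mitotic entry (123 ± 14.1 FPKM in IgM and 142 ± 22.4 FPKM in IgG1), had log2 fold changes of -0.18, -0.14 and -0.21. Their groups overlapped too, and their log2 fold changes were 0.06, 0.09 and 0.02 after rescaling without the joining chain gene.

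Centromere and kinetochore genes spread in both directions with 0 of 6 past the threshold. Cenpa, which encodes the histone H3 variant of the centromere, was at 69.2, 70.6 and 80.3 FPKM in IgM libraries and 75.5, 67.3 and 102 FPKM in IgG1 libraries (-0.13). Cenpf, a large kinetochore protein gene with the longest median transcript of the members (11130 nt), was at 2.86, 1.06 and 3.27 FPKM in IgM libraries and 1.98, 0.325 and 0.166 FPKM in IgG1 libraries. IgG1 library 1 lay among the IgM libraries while IgG1 libraries 2 and 3 lay below 1 FPKM, and the log2 fold change was 0.96 (SE 0.51, limma adjusted p = 0.302). Cenpe, the gene of a kinetochore motor, was at 3.46, 3.72 and 7.65 FPKM in IgM libraries and 5.27, 4.98 and 2.00 FPKM in IgG1 libraries (0.23, SE 0.45). The outer kinetochore genes Ndc80 (15.3 ± 4.60 FPKM in IgM, 11.4 ± 2.59 FPKM in IgG1; 0.38) and Spc25 (45.1 ± 11.7 FPKM in IgM and 40.6 ± 13.2 FPKM in IgG1; 0.17) and the spindle-attachment gene Knstrn (13.7 ± 2.58 FPKM in IgM and 13.9 ± 2.92 FPKM in IgG1; -0.02) overlapped between the groups.

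Of the 5 kinesin motor genes, 0 passed and Kif23 came closest. Kif23, which encodes a subunit of centralspindlin in cytokinesis, was at 8.90, 5.27 and 13.7 FPKM in IgM libraries and 2.47, 3.04 and 1.00 FPKM in IgG1 libraries. All IgM libraries were above all IgG1 libraries, and the mean was 4.28-fold higher in IgM (log2 fold change 1.67, SE 0.45, limma adjusted p = 0.0505). It passed with a pseudocount of 5 (0.96, limma adjusted p = 0.0399), with a filter at 5 FPKM (1.67, adjusted p = 0.0470) and after rescaling without the joining chain gene (1.85, adjusted p = 0.0369), but in none of the other settings run. Its limma adjusted p was 0.0729 with a pseudocount of 0.1, 0.0657 after quantile normalization, 0.0520 after median centring, 0.199 without the filter and 0.146 without the intensity trend. It was 0.0512 to 0.209 when 1 library was left out, and 0.109 with the length and GC trend removed (1.39). Its partner in centralspindlin, Racgap1, was at 49.0 ± 3.03 FPKM in IgM and 53.5 ± 4.68 FPKM in IgG1 (SD, n = 3 each; -0.12, 95% interval -0.48 to 0.23).

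Kif11, the gene of the motor that pushes the spindle poles apart, was at 23.6, 20.2 and 19.8 FPKM in IgM libraries and 14.4, 19.5 and 3.63 FPKM in IgG1 libraries. The groups did not overlap, although IgG1 library 2 was just below the lowest IgM library (log2 fold change 0.97, SE 0.46, limma adjusted p = 0.242). Without IgG1 library 3 the log2 fold change of Kif11 was 0.32 (limma adjusted p = 0.507). Kif15, which encodes a motor that assists it, was at 1.36, 3.47 and 1.61 FPKM in IgM libraries and 1.504, 4.56 and 0.102 FPKM in IgG1 libraries, which overlap (0.28, SE 0.58, the largest SE of the members). The cytokinesis kinesin gene Kif20a (30.8 ± 7.84 FPKM in IgM, 32.8 ± 5.61 FPKM in IgG1) and the chromosome-arm kinesin gene Kif22 (65.2 ± 22.8 FPKM in IgM and 81.3 ± 16.4 FPKM in IgG1; SD, n = 3 each) had log2 fold changes of -0.10 and -0.35 with overlapping groups.

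In the spindle and cytokinesis group 0 of 7 passed. Stmn1, the gene of the microtubule-destabilizing protein stathmin, was at 234, 268 and 239 FPKM in IgM libraries and 280, 307 and 367 FPKM in IgG1 libraries, with no overlap (-0.36, SE 0.13, limma adjusted p = 0.126). Nusap1, a spindle-bundling protein gene, was at 34.3, 28.5 and 33.6 FPKM in IgM libraries and 32.1, 20.2 and 8.69 FPKM in IgG1 libraries (0.80, SE 0.37, limma adjusted p = 0.224). Hmmr, which encodes a spindle-associated hyaluronan receptor, was at 20.3, 16.4 and 24.5 FPKM in IgM libraries and 13.7, 26.3 and 5.45 FPKM in IgG1 libraries (0.62, SE 0.43). In both Nusap1 and Hmmr IgG1 library 3 was the lowest of the 6, while IgG1 library 1 lay among the IgM libraries for Nusap1 and IgG1 library 2 above all of them for Hmmr. Without IgG1 library 3 the log2 fold change was 0.32 for Nusap1 and 0.08 for Hmmr. Tpx2, the activator gene of Aurora A, averaged 37.4 ± 5.79 FPKM in IgM and 31.4 ± 9.90 FPKM in IgG1 (0.28), and the midzone bundling gene Prc1 40.5 ± 5.36 FPKM in IgM and 40.0 ± 9.56 FPKM in IgG1 (0.04). Ect2, which encodes an exchange factor for RhoA in cytokinesis, averaged 8.70 ± 2.08 FPKM in IgM and 10.7 ± 5.00 FPKM in IgG1 (SD, n = 3 each; -0.21).

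**Figure D2:**
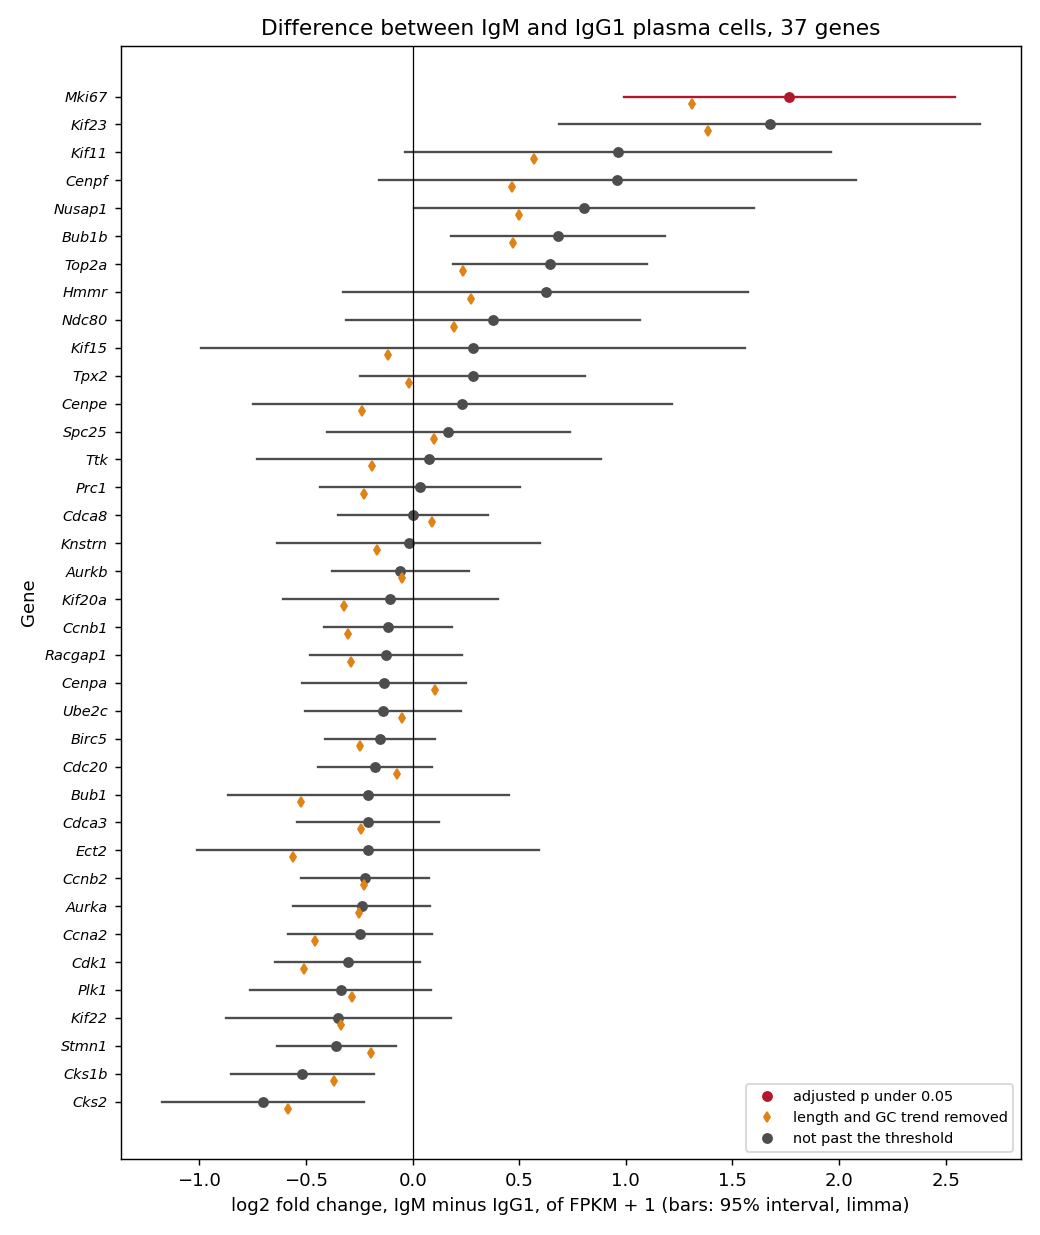
Log2 fold change of each of the 37 genes (IgM minus IgG1, of FPKM + 1), ordered from highest to lowest, with dots for the estimate, bars for limma's 95% interval and orange diamonds for the estimate after removal of the length and GC trends. Mki67 (1.77) is the only gene past the threshold, Cks2 (-0.70) is at the bottom, and 24 of the 37 intervals lie between -1 and 1.

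All libraries of the groups were separate for 9 members. Kif11, Kif23, Mki67 and Top2a were higher in every IgM library, 4 of 37, beside 13.5% of all tested genes. Ccnb2, Cdk1, Cks1b, Cks2 and Stmn1 were lower in every IgM library, 5 of 37, beside 13.7%. Those shares of the members, 10.8% and 13.5%, were no greater than the shares of all tested genes. Replicates varied more among IgG1 libraries, where the coefficient of variation over 3 libraries was larger than in IgM for 25 of 37 members (67.6%; median 15.5% in IgM and 22.7% in IgG1). The same held for 67.3% of the 9081 tested genes with a value in both groups (median 19.0% in IgM and 28.1% in IgG1). IgG1 library 3 held the highest value of the 6 for 12 members and the lowest for 10, and IgM library 1 the lowest for 14.

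The members' differences followed transcript length. Spearman rho between log2 fold change and length was 0.65 over the 37 members and 0.36 over the 9043 tested genes with a length, given as descriptions, since the genes share the same 6 libraries. Over the members GC content fell with length (rho -0.56). In classes bounded at 1852 and 3183 nt, which divide the tested genes evenly, 11 of the 13 longest members were higher in IgM (median log2 fold change 0.64), as were 70.3% of all genes in that class (median 0.26). Bub1 and Ect2 were the 2 exceptions. Of the 9 shortest members 2 were positive (median -0.18), beside 33.9% of all genes in that class (median -0.18). Of the 15 in between 3 were positive (median -0.12), beside 56.7% of all genes (median 0.07).

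The library with the largest departure was IgG1 library 3. Set against each gene's mean over the 6 libraries, the median of the 13 longest members was 0.32, 0.11 and 0.49 in IgM libraries 1 to 3 and -0.04, -0.24 and -0.99 in IgG1 libraries 1 to 3 (log2 scale). For all tested genes of that class the corresponding medians were 0.19, 0.08 and 0.19 in IgM and -0.03, -0.09 and -0.17 in IgG1. Without IgG1 library 3 the 13 longest members had a median log2 fold change of 0.32 with 9 positive, and rho over the 37 members was 0.43. With the length and GC trend removed their median was 0.27 with 8 of 13 positive, rho was 0.29, and the median of all 37 was -0.19, beside -0.02 for all genes. Mki67 was then the 1 member past the threshold. In that setting Kif11 was at 0.57, Nusap1 at 0.50, Bub1b at 0.47, Cenpf at 0.46 and Hmmr at 0.27. Cdk1 and Ccna2 moved farther from 0, to -0.51 and -0.46. Whether the length trend reflects RNA quality, library preparation or the cells was not tested.

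**Figure D3:**
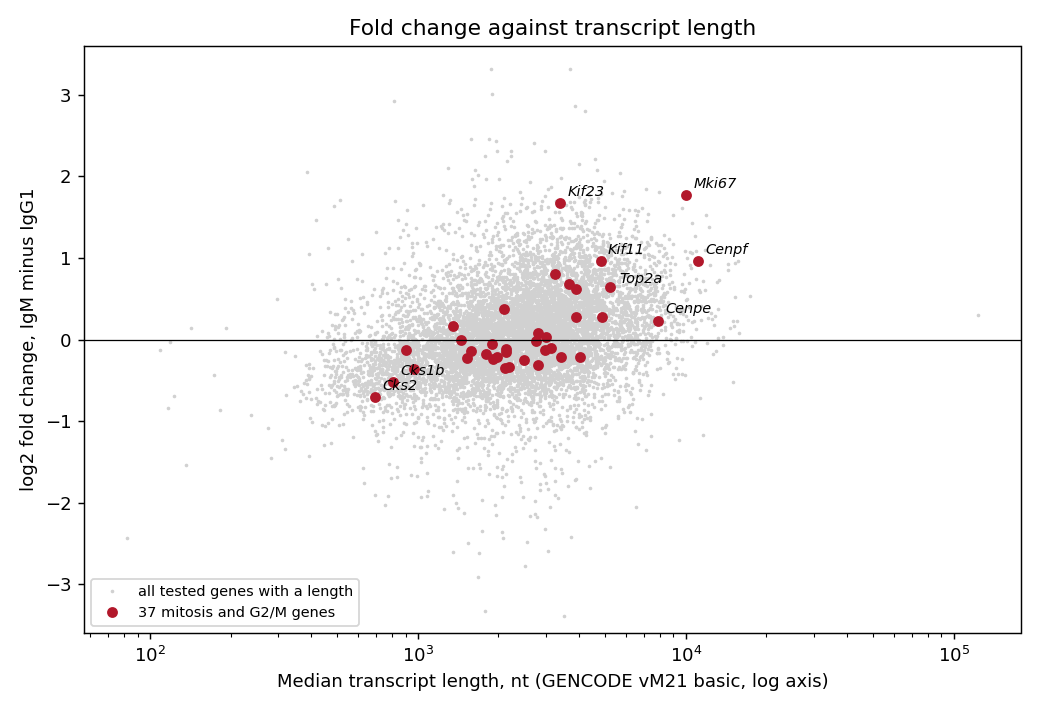
Log2 fold change (IgM minus IgG1) against median transcript length on a log axis, with grey dots for all tested genes with a known length and red dots for the 37 genes. The short Cks2 and Cks1b lie below 0 and the long Kif11, Top2a, Cenpf and Mki67 above it, within a cloud of genes whose fold change also follows length.

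Other cell cycle genes were read beside the same shares of all tested genes, 1.76% called higher, 4.26% called lower and 22.2% at an unadjusted p under 0.05. Of 25 tested mitotic regulators outside the members, 1 was higher and 0 lower (median log2 fold change -0.04, with 7 at an unadjusted p under 0.05). It was Espl1, the gene of separase, which cuts cohesin at anaphase, at 11.0, 14.2 and 14.8 FPKM in IgM libraries and 5.72, 5.18 and 3.31 FPKM in IgG1 libraries (1.34, SE 0.34, limma adjusted p = 0.0407). Of 54 other kinetochore and spindle genes 2 were called higher and 1 lower (median -0.10), and 1 of the 2, Aspm, passed the filter of 1 FPKM through the IgM libraries alone, so its call is no support for a difference. Aspm, a spindle pole protein gene, was at 4.43, 3.25 and 2.41 FPKM in IgM libraries, against 0.827 FPKM in IgG1 library 1 and a listed 0 in IgG1 libraries 2 and 3. Ckap5, the gene of a microtubule polymerase, was higher at 15.3 ± 2.61 FPKM in IgM and 5.43 ± 2.23 FPKM in IgG1 (1.40, limma adjusted p = 0.0443). Tubg1, a gamma-tubulin gene with a close paralogue with which it may share reads, was lower at 60.8 ± 6.91 FPKM in IgM and 104 ± 24.8 FPKM in IgG1 (SD, n = 3 each; -0.75, limma adjusted p = 0.0420).

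Of 15 subunit and partner genes of the anaphase-promoting complex 0 were higher and 1 was lower (median -0.22), Anapc16 at 29.9 ± 3.70 FPKM in IgM and 48.6 ± 3.01 FPKM in IgG1 (-0.69, limma adjusted p = 0.0480). Of 19 condensin and cohesin genes, which shape and hold chromosomes, limma called 0 in either direction, with 7 at an unadjusted p under 0.05. Their median was 0.43, with 15 of 19 positive, and at a median of 4691 nt they were the longest of the lists. Of all 9087 tested genes, 4876 were positive and 4211 negative, and of those longer than 3183 nt 70.3% were positive (median 0.26). The most abundant condensin and cohesin genes, Ncaph2 and Ncapd2, were at -0.45 and -0.15. Of 40 DNA replication and S phase genes 0 were higher and 1 lower (median -0.22, with 33 of 40 negative), the sliding clamp gene Pcna at 175 ± 7.32 FPKM in IgM and 246 ± 30.1 FPKM in IgG1 (-0.48, limma adjusted p = 0.0480). These medians and signs are of the values as deposited. They were not computed after rescaling without the joining chain gene, which moved the median of all tested genes from 0.05 to 0.25. The last list mixed inhibitors and regulators of exit from the cycle with the D cyclins and their kinases, which drive the cycle. Of its 16 tested genes 0 were higher and 1 lower (median -0.06), so the median is not that of exit genes alone. The 1 was the antiproliferative gene Btg2 at 191 ± 7.54 FPKM in IgM and 266 ± 22.6 FPKM in IgG1 (SD, n = 3 each; -0.47, limma adjusted p = 0.0376). At an unadjusted p under 0.05, limma had 9 of the 54 other kinetochore and spindle genes and 4 of the 15 anaphase-promoting complex genes. It had 9 of the 40 S phase genes and 5 of the 16 genes of the mixed last list.

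Pcna and Btg2 kept adjusted p under 0.05 with the length and GC trend removed (limma, -0.56 and 0.0440 for Pcna, -0.63 and 0.0185 for Btg2). Espl1 (1.14, adjusted p = 0.0916), Ckap5 (0.95, 0.172), Tubg1 (-0.61, 0.0833) and Anapc16 (-0.49, 0.191) did not. Each of these 6 calls ended when 1 library was left out, whichever of the 6 it was for Anapc16, and any except IgG1 library 1 for Espl1, Ckap5, Tubg1, Pcna and Btg2. The largest adjusted p in those fits was 0.152 for Espl1, 0.178 for Anapc16, 0.152 for Ckap5, 0.165 for Tubg1, 0.149 for Pcna and 0.144 for Btg2.

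**Figure D4:**
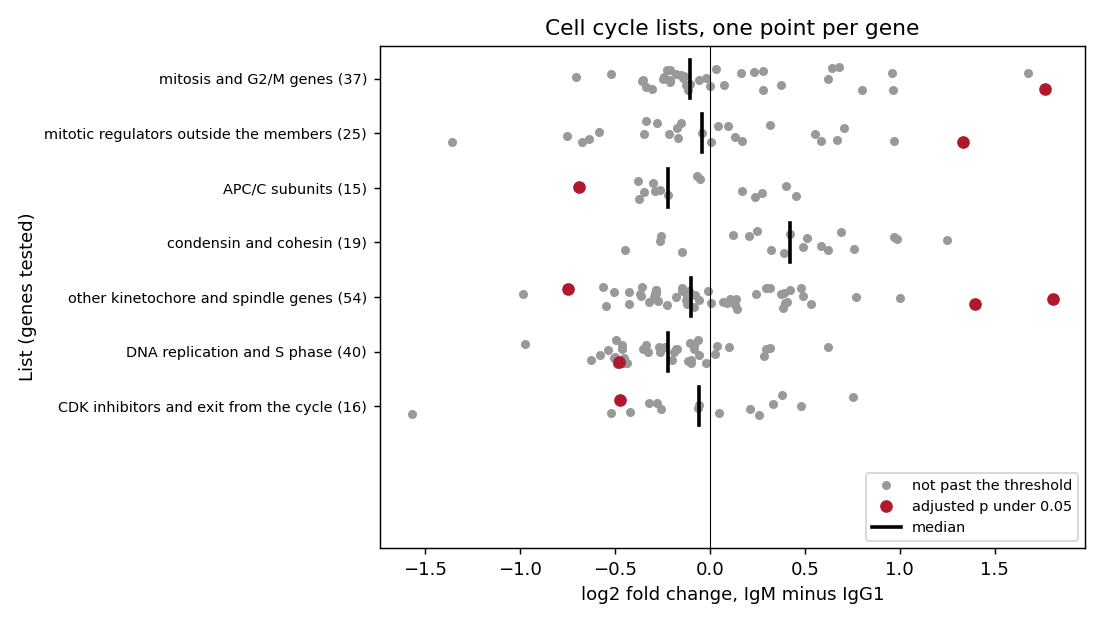
Log2 fold changes (IgM minus IgG1) of the 37 genes and of 6 other cell cycle lists down the page, with 1 point per gene, red for an adjusted p under 0.05 and a black bar for each list's median. The medians lie between -0.22 and 0.43, and 1 gene of the 37 and 7 of the other genes, Aspm among them, are red.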

How the data were processed

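RNA of 3 IgM and 3 IgG1 plasma cell libraries was measured by sequencing. Per the labels' protocols, total RNA was extracted with a miRNeasy Micro kit, and libraries were made with SMART-Seq HT and Nextera XT. The deposited values were FPKM, per the file headers. The submitters' processing notes name Cuffdiff, Cufflinks 2.2.1, Bowtie2 2.3.5.1, TopHat2 2.1.1 and mm10. The sources used here give no annotation, strand use or scaling across libraries. No read counts were used. The most frequent low value of FPKM times length, read in coarse bins and taken as 1 fragment, gave approximate depths. They were 16200000 to 17800000 fragments in IgM and 15500000 in each IgG1 library. At these depths Kif15 in IgG1 library 3 came to roughly 8 fragments.

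FPKM were analysed as deposited. Genes with at least 1 FPKM in at least 3 of 6 libraries were tested with limma 3.58.1 in R 4.3.3 (intensity trend) on log2(FPKM + 1), adjusted by Benjamini-Hochberg over all 9087 genes. Lengths and GC contents were medians over GENCODE vM21 basic transcripts (GRCm38, the assembly of mm10), found for 99.5% of tested genes. The trend was removed with splines of 4 degrees of freedom. Motifs were searched in RefSeq promoter windows. The test was checked on simulated data with known changes. It recovered 22% of log2 changes of 0.5, 56% of those of 1 and 98% of those of 2. The changes were placed only in genes averaging above about 5 FPKM, with a spread smoothed over genes of like level. Cenpe, Cenpf, Kif15 and Kif23 lay below that level, so these rates do not cover them. A member that was not called may therefore still differ by such amounts, or by more where its interval is wide. The 95% interval reached 2.66 for Kif23, 2.08 for Cenpf and 1.96 for Kif11. Exons of Ccna2, Cdc20, Ube2c, Kif20a, Nusap1 and Prc1 overlap those of another protein-coding gene, and Ccnb1, Ccnb2 and Kif22 have a named pseudogene, so their values are uncertain to that extent. The members and lists were chosen with earlier results of these data known. All 37 members could be named. In the other lists a gene was named if past the threshold (at most 4 per direction) or, in a list with none, as 1 of the 2 with the highest mean. Single values of some marker genes are not reported here.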

Additional observations from a re-analysis of the deposited data

How the results depend on the processing

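The count of members called higher in IgM, 1 in the analysis reported, was 2 with a pseudocount of 5 or a filter at 5 FPKM, 3 after rescaling without the joining chain gene, and 0 without the filter or the intensity trend, where Mki67 had adjusted p of 0.143 and 0.139 with limma. It ranged from 0 to 1 when 1 library was left out. The count called lower was 0 to 2 in those fits. The members' median was 0.12 after the rescaling, and the ratio of their summed FPKM, IgM over IgG1, was 0.864, or 1.02 after it.

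Over all tested genes the calls higher in IgM were 4 without the filter, 394 after the rescaling, 5 without the intensity trend and 82 with the length and GC trend removed, and ranged from 29 to 262 when 1 library was left out. The calls lower in IgM were 2, 177, 3 and 182 in the same order, 188 after quantile normalization, and ranged from 83 to 398 when 1 library was left out. With a pseudocount of 5, 198 of 9087 genes were called higher, and with a filter at 5 FPKM 186 of 6642. The rescaling both evens out the unequal summed FPKM of the libraries and omits the joining chain gene, and these were not run apart. The 8 plasma cell markers found, that gene among them, summed to 44300 to 50170 FPKM in IgM and 36770 to 39350 FPKM in IgG1. Library totals were 730695 to 914019 FPKM, so the omitted gene was a small part of each. The share of the shift due to either step was not tested. The cause of the other shifts was not tested.

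Sign changes among members touched 20 genes, none of them called and none beyond 0.28 in the analysis reported. Log2 fold changes that changed sign were, with the length and GC trend removed, Ttk -0.19, Cenpa 0.10, Cenpe -0.24, Kif15 -0.12, Tpx2 -0.0191, Prc1 -0.23. After median centring they were Cdca8 -0.0744, Prc1 -0.0395, and after quantile normalization Ccnb1 0.0554, Ttk -0.0302, Aurkb 0.0344, Birc5 0.0156, Ube2c 0.081, Kif15 -0.12. After the rescaling they were Ccnb1 0.12, Ccnb2 0.0064, Bub1 0.0047, Aurkb 0.17, Birc5 0.0778, Cdc20 0.0562, Ube2c 0.0931, Cdca3 0.0212, Cenpa 0.0966, Knstrn 0.20, Kif20a 0.12, Racgap1 0.10. When 1 library was left out, signs changed for Ttk (-0.0696 to 0.33), Cdca8 (-0.13 to 0.0974), Ube2c (-0.25 to 0.0411), Cenpa (-0.26 to 0.0375), Cenpe (-0.11 to 0.42), Spc25 (-0.0643 to 0.40), Knstrn (-0.16 to 0.14), Kif15 (-0.30 to 0.86), Kif20a (-0.30 to 0.0324), Prc1 (-0.14 to 0.20), Ect2 (-0.43 to 0.12).

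Same-numbered IgM and IgG1 libraries showed little shared deviation (Pearson r of their deviations from the group means 0.10, -0.03 and -0.000571 for numbers 1 to 3). With 3 libraries per group, that check cannot tell whether same-numbered libraries shared a host or a preparation. With the replicate number as a block, 2 of the 37 members were called lower in IgM, Cks1b (limma adjusted p = 0.0266) and Cks2 (0.0482), and Mki67 stayed called. Beside them, 432 of all 9087 tested genes were called lower and 154 higher in that fit. Not every library correlated best with its own number. At the approximate depths, Kif15 and Cenpf in IgG1 library 3 rest on roughly 8 and 29 fragments.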
